A study of Mus musculus with 7 samples.

Results

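The subunits of the respiratory chain and of ATP synthase that are encoded in the nucleus were examined in sorted mouse prostate luminal cells. The members were chosen by gene symbol alone, as Nduf subunits of complex I (assembly factors left out), Sdha to Sdhd, Uqcr genes and Cyc1, Cycs, the Cox4 to Cox8 genes and the Atp5 genes. This rule found 84 of the 18193 genes tested: 34 of complex I, 4 of complex II, 9 of complex III, 19 of complex IV (here with Ndufa4 and its paralogue Ndufa4l2), cytochrome c itself and 17 of ATP synthase. The 84 genes had 174 probe sets naming them alone, and the probe set with the highest mean stood for each gene. A further 10 probe sets named a member together with another gene and were not used for it, and Ndufa11 and Ndufs6 had only such probe sets.

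Wild-type mice (WT) gave 3 arrays, lettered A to C, and T-ETV1 mice gave 4, lettered A to D. In the T-ETV1 allele the endogenous Tmprss2 promoter drives a human cDNA of ETV1, a transcription factor of the ETS family. In both groups the cells were sorted as CD49f positive and Sca1 negative after removal of cells with CD31, CD45 or Ter119, and T-ETV1 cells were gated on GFP as well, so genotype and the GFP gate cannot be told apart. No source used here gives age, strain or how many animals stand behind an array. The spread between these arrays, on which the p-values rest, may be technical in part. The test used (limma) also pools each gene's spread with that of all genes tested. For genes of small spread the standard errors are thus larger than their own arrays alone would give. Values are the authors' intensities, used as log2(intensity + 16), and having only 7 arrays bounds the precision of each difference. Intensities are listed in the order of the letters, first for WT (A to C) and then for T-ETV1 (A to D).

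The respiratory chain sits in the inner mitochondrial membrane. Complex I takes electrons from NADH and complex II takes them from succinate, both pass them to ubiquinone, complex III hands them to cytochrome c, and complex IV gives them to oxygen. Complexes I, III and IV pump protons across the membrane, and ATP synthase lets them flow back to make ATP. The prostate's luminal cells are known for secreting citrate, an intermediate of the cycle that feeds this chain.

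The labelled cell type was checked against its markers. The 9 measured luminal markers had mean log2 values between 12.7 and 12.9 in every array, among them the keratin genes Krt8 and Krt18. Markers of other cells had mean log2 values that were highest in WT C, and none of them passed the test. The summed intensity of 13 smooth muscle and pericyte markers ran from 864 to 6428 in WT and from 256 to 1173 in T-ETV1, and that of 15 endothelial markers from 2203 to 7766 and from 723 to 2868. A lower mean in T-ETV1 was found for 12 of the 13 smooth muscle markers, all 15 endothelial and all 13 fibroblast markers. It was also found for 11 of 12 leukocyte and 10 of 11 basal markers. No marker was at 0 in any array, but the lowest intensity was 1.0 in the endothelial, smooth muscle and leukocyte lists. Array medians of intensity ran from 48.5 in T-ETV1 A to 73.7 in WT C. In bulk RNA fewer cells of a type and less RNA per cell cannot be told apart.

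Promoters of members are shown because ETV1 is an ETS factor and because genes of this pathway are known for carrying sites of NRF1 and of the ETS factor GABP. RefSeq promoters of GRCm38.p6 (250 bases before to 50 after a start of transcription) were matched for 68 of the 84 members. On either strand, the ETS letters CCGGAAGT were found for 5 of the 68 (7.35%), against 4.31% of all 27025 genes in the table. The NRF1 core CGCATGCG, which reads the same on both strands, was found for 9 of 68 (13.2%), against 2.07% of all genes. Uqcr11, a small subunit of complex III, was the 1 member with both; the other windows shown hold 1 site each, for Atp5h (the d subunit in the stalk of ATP synthase), Atp5k (its membrane subunit e) and Cycs (cytochrome c). All of them lie on the minus strand and run from 110 bases before the start to 10 after it, and the capitals mark the ETS or NRF1 letters. The Uqcr11 window is chr10:80406812-80406931, that of Atp5h chr11:115419910-115420029, that of Atp5k chr5:108434390-108434509 and that of Cycs chr6:50566560-50566679.
Uqcr11: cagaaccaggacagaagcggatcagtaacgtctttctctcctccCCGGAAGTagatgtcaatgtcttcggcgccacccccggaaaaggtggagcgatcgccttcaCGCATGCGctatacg
Atp5h: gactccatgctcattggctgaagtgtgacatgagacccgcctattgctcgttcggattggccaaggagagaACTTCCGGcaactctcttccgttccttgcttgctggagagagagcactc
Atp5k: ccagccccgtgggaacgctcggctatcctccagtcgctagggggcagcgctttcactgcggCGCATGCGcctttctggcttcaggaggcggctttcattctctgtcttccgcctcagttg
Cycs: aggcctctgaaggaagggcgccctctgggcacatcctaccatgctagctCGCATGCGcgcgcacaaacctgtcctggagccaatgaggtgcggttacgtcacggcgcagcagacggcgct

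These letters are a description of the windows and not binding data. Members with the ETS letters (Atp5h, Cox8a, Ndufs3, Uqcr11 and Uqcrh) had a median log2 difference, T-ETV1 minus WT, of -0.03 and a range from -0.09 to 0.0028. The 63 members without them had a median of -0.0062. For the NRF1 letters the medians were -0.0062 with and -0.0062 without. None of these members passed the test described next.

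The subunit genes differed little between T-ETV1 and WT luminal cells. None of the 84 members passed (limma, Benjamini-Hochberg adjusted p under 0.05 over all genes), and neither did any of the 18193 genes (0.00%), of which 1113 (6.12%) had an unadjusted p under 0.05, against 3 members (3.57%). Without T-ETV1 C 27 genes passed, without WT C 7 and without both C arrays 68, and no member was among them. The smallest adjusted p of a member was 0.581. The median log2 difference of the members was -0.0080, beside -0.03 over all genes. The median size of the difference regardless of sign was 0.03 in members and 0.15 in all genes. But members are bright, with a median log2 level of 12.1 against 7.76 over all genes. Between mean log2 values of 11 and 12 the median size was 0.0188 in 25 members and 0.0669 in 1787 others. Between 12 and 13 it was 0.0246 in 41 members and 0.0431 in 629 others. Above 13 it was 0.0238 in 6 members and 0.0184 in 91 others. The 1 member between 10 and 11 had 0.257, against 0.112 in 2322 others. Of the members 36 had a difference above 0 and 48 one below, but this split rests on the scaling: it was 46 above and 38 below after quantile normalization and 76 above and 8 below after centring each array on its median. Centring shifts every gene alike and moved the median of all genes from -0.03 to 0.11 and that of the members to 0.13. The members' median minus that of all genes was 0.02 with the deposited scaling, -0.01 after quantile normalization, -0.02 without WT C and -0.0050 without both C arrays.

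Signal split the members into 2 sets with a wide gap between them, as seen after the values were known. There were 73 genes with a mean log2 value of at least 10 (the lowest was 10.8, for Ndufs1), and 11 with a mean of 8.38 or less. The bright set holds the general subunits of every complex and cytochrome c. Their intensities ran from 1526 to 10183, while the highest intensity of any gene on an array was between 13633 and 14597, so the upper members lie near the top of the scale. Whether differences are compressed there was not tested. In the 11 dim genes, 8 are isoforms known for restricted tissue use, and the others are Cox7c, Ndufb1 and Ndufb4.

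**Figure D1:**
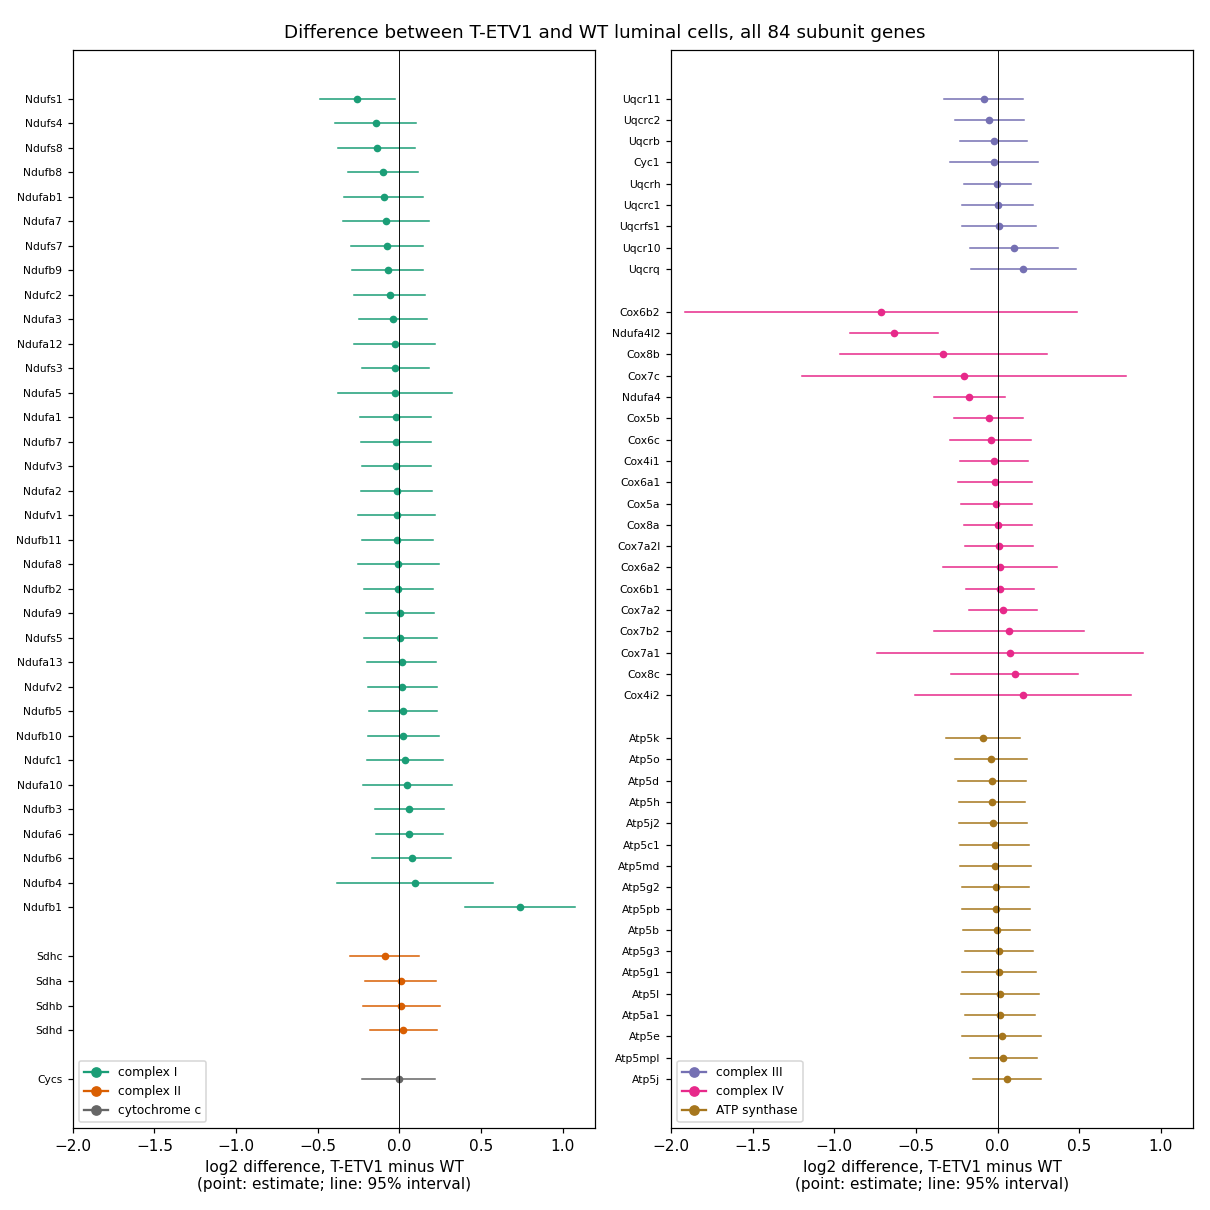
Log2 difference, T-ETV1 minus WT (x axis), with its 95% interval for each of the 84 members (y axis), coloured by complex. The 73 bright members lie between -0.26 and 0.16, and wide intervals belong to dim genes such as Cox6b2, Cox7a1 and Cox7c.

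For the bright members the data set bounds on the difference. The limma standard errors lay between 0.08 and 0.15, and the 95% intervals of all 73 lay between -0.49 and 0.48 on the log2 scale. Spread pooled from all genes widens these bounds: the median standard error was 0.09, while the median within-group SD of these members was 0.05. In 68 of the 73 the estimate was smaller than 0.1 in either direction. Every probe set of a member with a mean log2 value of at least 10 was also examined: there were 132 for these 73 genes, their differences ran from -0.26 to 0.18, and 131 were smaller than 0.25. Of the 132, 8 had all T-ETV1 arrays below all WT arrays and 1, of Ndufv2, had them above. Counted by gene, 157 of the 4902 genes of that signal were lower without overlap and 108 higher.

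Complex I, the largest of the complexes, had a median difference of -0.02 over 34 genes, 13 above and 21 below 0. Its core subunits carry the flavin and the iron-sulfur clusters that lead electrons from NADH to ubiquinone. Ndufs1, the largest iron-sulfur protein among them, had intensities of 1948, 2036 and 1915 in WT and of 1686, 1526, 1758 and 1609 in T-ETV1. All 4 T-ETV1 arrays were below all 3 WT arrays. The WT mean on the log2 scale was 10.95 ± 0.05 (SD, n = 3). That of T-ETV1 was 10.7 ± 0.09 (SD, n = 4), a difference of -0.26 ± 0.10 (SE), with a limma unadjusted p of 0.0337 and an adjusted p of 0.792. Within the replicate letters the difference was -0.21 for A, -0.41 for B and -0.12 for C.

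Ndufs8, an iron-sulfur subunit close to the ubiquinone site, had intensities of 3829, 3495 and 3730 in WT and of 3418, 3058, 3423 and 3488 in T-ETV1. The groups did not overlap, though WT B and T-ETV1 D were nearly equal. The difference was -0.14 ± 0.10 (limma adjusted p = 0.881). Its 5 other probe sets had differences between -0.17 and -0.11, so that all 6 had the same sign, and the groups overlapped in those 5. The other core subunits showed smaller values: Ndufs7 had -0.08, Ndufs3 -0.03 and Ndufv1, the flavin-bearing subunit, -0.02, while Ndufv2 had 0.02. The 2 other probe sets of Ndufv2 had 0.07 and 0.18, the latter with all T-ETV1 arrays higher. Of the 6 core genes 5 had a difference below 0, and none passed.

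The 28 accessory genes of complex I, which surround the core and are needed for its assembly and stability, had a median difference of -0.0089. Ndufs4, an accessory subunit whose loss in mice gives a model of Leigh syndrome, had intensities of 3647, 3411 and 3361 in WT and of 3474, 2900, 3049 and 3151 in T-ETV1. T-ETV1 A lay among the WT arrays, and the difference was -0.15 ± 0.10 (limma adjusted p = 0.881). Its other bright probe set (mean log2 value 10.77) had -0.04, and dimmer ones (7.26 and 6.27) had 0.17 and -0.74. Ndufa5 had the largest spread within groups of the bright members (SD 0.18), since T-ETV1 C reached 4318 while T-ETV1 B had 2975. These 2 genes were chosen after their values were seen.

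Ndufb1 is a small accessory subunit of the membrane arm. By the probe set standing for each gene, it was the 1 member with all T-ETV1 arrays above all WT arrays. Its intensities were 12.3, 22.2 and 15.7 in WT against 39.9, 36.2, 32.9 and 44.2 in T-ETV1. Every one of these values is under the median intensity of its array, at the dim end of the scale. The difference was 0.74 ± 0.14 (limma unadjusted p = 0.00141, adjusted p = 0.581), and it ran from 0.34 with a pseudocount of 64 to 1.18 with a pseudocount of 1. It had a single probe set, and the file gives no detection call.

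Complex II, which is also the succinate dehydrogenase of the citric acid cycle, had differences of 0.0070 for Sdha (the flavin subunit), 0.01 for Sdhb (the iron-sulfur subunit), -0.09 for Sdhc and 0.02 for Sdhd (the membrane anchors). Sdhc had intensities of 2974, 3078 and 3036 in WT and of 2961, 2721, 2895 and 2805 in T-ETV1. Its groups did not overlap, but T-ETV1 A and WT A were nearly equal, and the difference was -0.09 ± 0.09 (limma adjusted p = 0.919; 95% interval from -0.30 to 0.12). The other probe set of Sdhc (mean log2 value 10.4) had -0.02, with overlapping groups. The anchor Sdhd had 3809, 3794 and 3698 in WT and 3997, 3733, 3812 and 3787 in T-ETV1, with overlapping groups.

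Complex III had a median difference of -6.0e-04 over 9 genes. Its catalytic subunits Cyc1 (cytochrome c1) and Uqcrfs1 (the Rieske iron-sulfur protein) had -0.02 ± 0.11 and 0.0073 ± 0.10 (SE). The largest differences belonged to small subunits. Uqcrq had intensities of 2595, 2616 and 2274 in WT and of 3351, 2552, 2540 and 2743 in T-ETV1, and Uqcr10 had 2859, 3073 and 3124 against 3735, 3035, 3134 and 3072. In both genes T-ETV1 A was the highest array and the groups overlapped. The differences were 0.16 ± 0.14 for Uqcrq and 0.10 ± 0.11 for Uqcr10 (limma adjusted p = 0.909 and 0.934), and without T-ETV1 A they were 0.07 and 0.03. Uqcr10 also had a dimmer probe set (mean log2 value 8.36) with a difference of -1.79 ± 1.12, against 0.07 for its remaining one.

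Cytochrome c, the mobile carrier between complexes III and IV, had intensities of 3703, 3892 and 3552 in WT and of 3725, 3521, 3897 and 3668 in T-ETV1 (gene Cycs). The arrays of both groups were interleaved. The difference was -0.0049 ± 0.09 (SE), with a 95% interval from -0.23 to 0.22.

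Complex IV, the cytochrome c oxidase, had 10 bright members with a median difference of -0.01. Its common isoforms Cox4i1, Cox6a1, Cox6b1, Cox7a2 and Cox8a had differences of -0.02, -0.02, 0.01, 0.03 and 0.0028, each with a standard error between 0.08 and 0.10. Ndufa4, first assigned to complex I and now counted with complex IV, had intensities of 6737, 6772 and 6591 in WT and of 6290, 5913, 5975 and 5598 in T-ETV1. All T-ETV1 arrays were below all WT arrays. The mean log2 value was 12.7 ± 0.02 (SD, n = 3) and 12.5 ± 0.07 (SD, n = 4), and the difference of -0.17 ± 0.09 did not pass (limma unadjusted p = 0.10, adjusted p = 0.848).

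Ndufa4l2, the paralogue of Ndufa4 and a known target of the hypoxia factor HIF-1, had intensities of 14.2, 19.2 and 20.7 in WT, against 4.18, 5.93, 6.09 and 7.32 in T-ETV1. The groups did not overlap, and every value was under the median intensity of its array. The difference was -0.63 ± 0.11 (limma unadjusted p = 9.5e-04, adjusted p = 0.581), from -0.23 with a pseudocount of 64 to -1.47 with a pseudocount of 1, and it was -0.58, -0.68 and -0.73 within the letters A, B and C. Beside it, Pdgfrb, a receptor of pericytes, had intensities of 67.8, 91.9 and 305 in WT and of 12.6, 4.86, 8.51 and 13.8 in T-ETV1. Rgs5, another pericyte marker, had 69.1, 400.1 and 97.4 in WT and 8.99, 4.96, 184 and 325 in T-ETV1, so that T-ETV1 C and D lay above WT A and C. The part of such cells in the Ndufa4l2 value was not tested. Ndufa4l2 had 1 probe set.

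**Figure D2:**
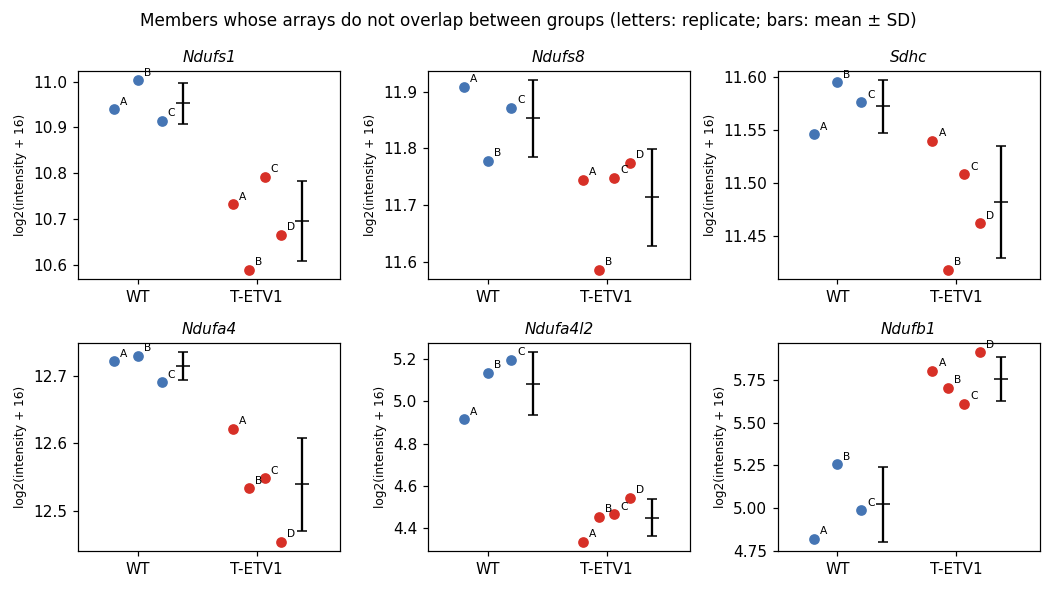
Values of log2(intensity + 16) (y axis, a scale of its own for each gene) by group (x axis) for the 6 members whose WT and T-ETV1 arrays do not overlap. Letters are replicates and bars the mean ± SD; 5 genes are lower in T-ETV1 and Ndufb1 is higher, and the span of the y axes of Ndufa4l2 and Ndufb1 is wider than that of the bright genes.

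Across the members, 5 (5.95%) had all T-ETV1 arrays below all WT arrays, against 3.90% of all genes, and 1 (1.19%) had them above, against 2.42% of all genes. The 5 were Ndufs1, Ndufs8, Sdhc, Ndufa4 and Ndufa4l2. After quantile normalization there were 3 lower (3.57%) and 2 higher (2.38%) members, against 2.7% and 3.79% of all genes. After median centring there was 1 lower and 1 higher (1.19% each), against 1.75% and 5% of all genes. Median centring brought the difference of Ndufs1 to -0.12, that of Ndufs8 to -0.0025, that of Ndufa4 to -0.04 and that of Sdhc to 0.05. With 1 array fewer it is easier for groups not to overlap: 12 members (14.3%) were lower without WT C, against 7.08% of all genes, and 12 without T-ETV1 A, against 5.90%. Without WT A and without WT B 8 members (9.52%) were lower, against 9.71% and 7.01%. The lower count was 7 (8.33%) without T-ETV1 C, against 10.8%, and 6 (7.14%) when T-ETV1 B or T-ETV1 D was left out, against 6.21% and 5.45%. Higher members numbered 5 (5.95%) without WT C and without T-ETV1 B, against 6.71% and 3.99% of all genes, 3 (3.57%) without WT A and without T-ETV1 D, against 4.86% and 3.62%, and 1 or 2 without the other arrays. Without both C arrays there were 16 lower (19.0%) and 6 higher (7.14%) members, against 15.1% and 10.9% of all genes.

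Complex IV also has isoforms known from single tissues, and their arrays overlapped between the groups in all 7 measured. Of the heart and skeletal muscle isoforms, Cox7a1 had intensities of 270, 494 and 214 in WT and of 305, 509, 269 and 263 in T-ETV1, and both B arrays stood above the others. Cox8b was at 29.2, 5.96 and 18.7 in WT and at 4.64, 14.1, 9.28 and 12.4 in T-ETV1, and Cox6a2 lay between 25.8 and 43.8 in all 7 arrays. The differences were 0.08 ± 0.34, -0.33 ± 0.27 and 0.01 ± 0.15 (SE). That of Cox8b was -0.10 without WT A and -0.62 without WT B, and over all alternatives it ran from -0.625 with a pseudocount of 1 to -0.02 with array weights.

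Testis isoforms were likewise dim. Cox6b2 had 104, 123 and 444 in WT and 75.7, 112, 161 and 84.5 in T-ETV1, so that WT C, the array with the most signal from markers of other cells, was far above the rest. Its difference was -0.71 ± 0.50 (limma adjusted p = 0.881) and -0.10 without WT C. Cox7b2 and Cox8c stayed at 15.3 or less in every array. Cox4i2, the isoform of lung and other oxygen-sensing tissue, had 91.0, 67.9 and 55.9 in WT and 82.0, 132.5, 54.6 and 67.6 in T-ETV1, with a difference of 0.16 ± 0.28 (limma adjusted p = 0.962). The files give no detection call, so none of these levels could be set against background.

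**Figure D3:**
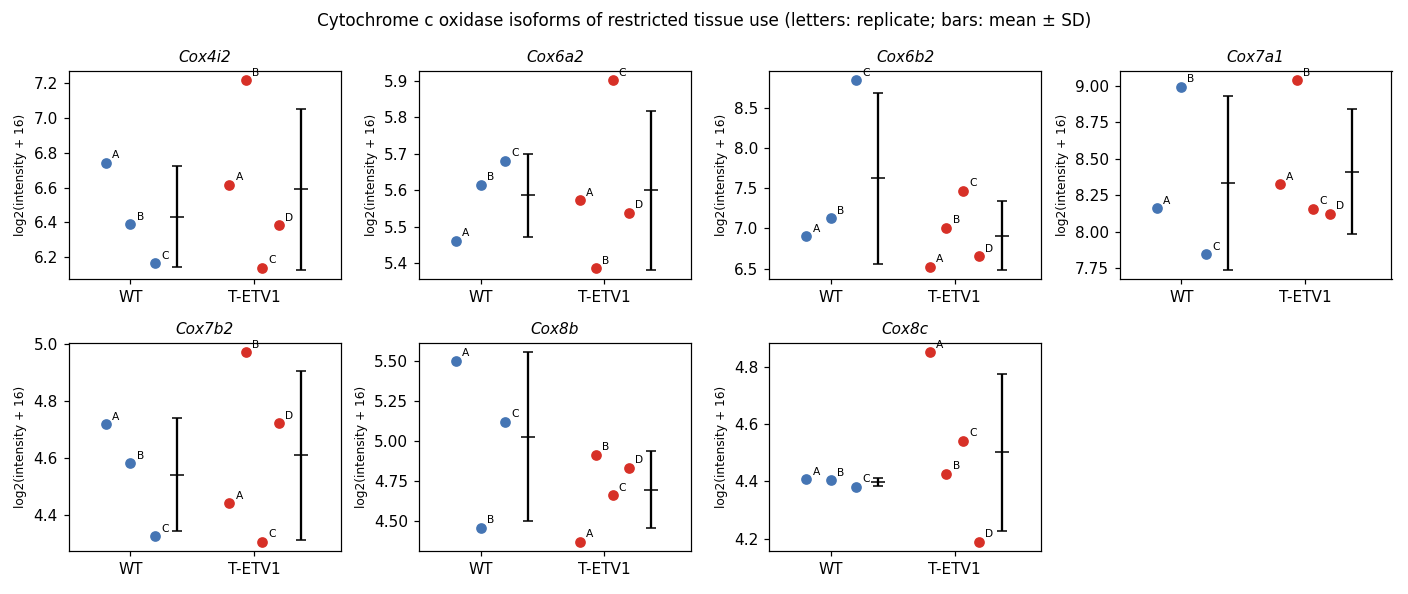
Values of log2(intensity + 16) (y axis, own scale for each gene) by group (x axis) for 7 cytochrome c oxidase isoforms of restricted tissue use; letters are replicates and bars the mean ± SD. The groups overlap in every panel, and Cox6b2 in WT C, at 8.85, stands above the other 6 arrays.

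Cox7c, a subunit of every cytochrome c oxidase, had its 2 probe sets at mean log2 values of 8.29 and 5.06. Intensities of the brighter one ran from 232 to 535 in WT and from 144 to 418 in T-ETV1, and the difference was -0.21 ± 0.41. Ndufb4 of complex I was at 18.1 to 43.9 in its own probe set, while 2 probe sets shared with the copies Ndufb4b and Ndufb4c had mean log2 values of 12.3 and 11.5 and differences of -0.07 and -0.06. Why the signal of these probe sets is low was not tested.

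In ATP synthase the median size of the difference was 0.0165 over 17 genes, beside 0.0319 in complex I, 0.0179 in complex II, 0.0245 in complex III and 0.0545 in complex IV with its isoforms. The catalytic head was close to level: Atp5a1, its alpha subunit, had 7182, 7526 and 7952 in WT and 7587, 7768, 7540 and 7642 in T-ETV1, and Atp5b, its beta subunit, had 7261, 7555 and 7125 against 7314, 7260, 7305 and 7241. Both had overlapping groups, and their differences were 0.02 ± 0.09 and -0.0062 ± 0.09 (SE). The 5 head genes spanned -0.03 to 0.02.

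The proton-carrying c ring is encoded by Atp5g1, Atp5g2 and Atp5g3, which give the same mature protein behind different import sequences. Atp5g1 had 5843, 5387 and 5479 in WT and 5371, 5399, 5719 and 5977 in T-ETV1. Atp5g2 stayed between 3915 and 4111 in all 7 arrays, the smallest spread within groups of all members (SD 0.02), and Atp5g3 between 7836 and 8401. The differences were 0.01 ± 0.09, -0.01 ± 0.08 and 0.0066 ± 0.09, with limma adjusted p values of 0.994, 0.994 and 0.996. Of the stalk, Atp5j (coupling factor 6) had 0.06 ± 0.09, and of the membrane part Atp5k had -0.09 ± 0.10, with 5099, 4619 and 4890 in WT and 4919, 4470, 4522 and 4401 in T-ETV1.

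The spread between arrays of a group was small for the bright members, with a median within-group SD of 0.05 against 0.14 for the 4829 other genes of like minimum signal. Since spread falls with signal on these arrays, the comparison was repeated within ranges of signal. Between 11 and 12 on the log2 scale the median SD was 0.07 in 25 members and 0.12 in 1787 other genes, and between 12 and 13 it was 0.05 in 41 members and 0.08 in 629 others. Above 13, near the top of the scale, it was 0.04 in 6 members and 0.04 in 91 others. These values are descriptions, with no test.

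**Figure D4:**
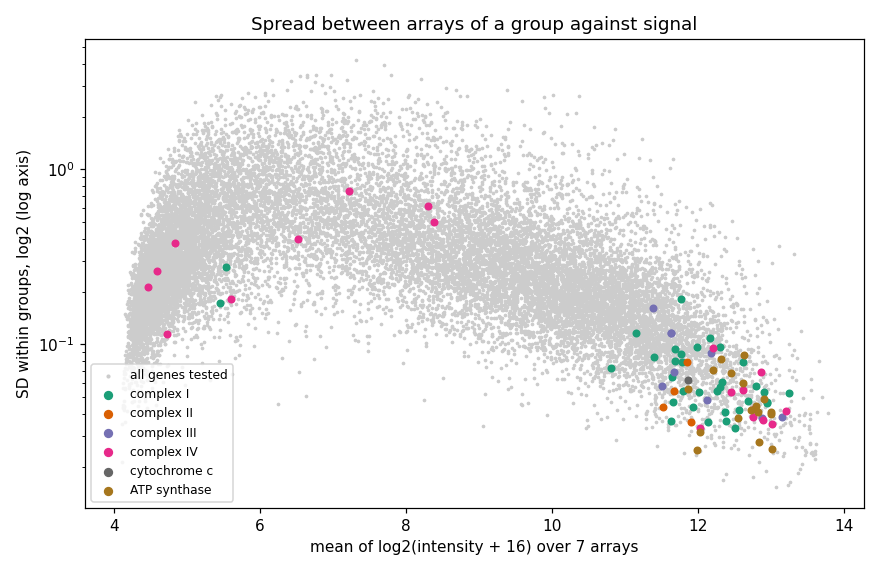
Within-group SD of log2 values (y axis, log scale) against the mean of log2(intensity + 16) over 7 arrays (x axis) for all 18193 genes (grey) and the 84 members (coloured by complex). Most members crowd at the bright, low-spread end, and 11 lie at mean values of 8.38 or less.

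What spread there was had a pattern by array. T-ETV1 B was the lowest of the 7 arrays in 31 of the 73 bright members (42.5%), but in 17.5% of the 4829 other genes of that signal. The median deviation of the bright members from their own means was -0.05 in T-ETV1 B, 0.03 in WT A and 0.02 in T-ETV1 A, and between -0.0043 and 0.0029 in the others. By complex, the median log2 value of complex III was 11.87 in T-ETV1 A and 11.58 in T-ETV1 B. These medians are the values of different genes, Uqcr10 in T-ETV1 A and Uqcrfs1 in T-ETV1 B. The median of complex I was 12.16 and 11.95 in the same arrays. T-ETV1 B was lowest in ATP synthase too (12.56). It was not the lowest in complex II (11.71, against 11.7 in WT B) or in bright complex IV (12.73, against 12.71 in T-ETV1 C). T-ETV1 B also had the lowest list median in the mitochondrial ribosomal proteins (11.04, against 11.15 to 11.33 in the other arrays), the carriers (12, against 12.16 to 12.35), the complex I assembly factors (9.28) and the ATP synthase assembly list (9.64), but not in the citric acid cycle, where WT A was lowest (11.15). T-ETV1 B was lowest in the complex IV assembly list too (10.43). In the complex III assembly list T-ETV1 B was the highest array (9.86). It was not the lowest in the complex II assembly list, the coenzyme Q genes or the biogenesis regulators. By list medians the pattern is thus shared with some other mitochondrial lists but not with all. Which lists share it changes with list means. By means T-ETV1 B was still lowest in the ribosomal proteins (10.87) and in the ATP synthase (9.9) and complex IV (10.11) assembly lists. The carriers were lowest in T-ETV1 D (11.17, T-ETV1 B 11.21) and complex I assembly in WT A (9.325, T-ETV1 B 9.352). The citric acid cycle was at 11.18 in T-ETV1 B and D and 11.19 in WT A. The pattern was noticed in the data and has no test. Without T-ETV1 B, 45 members had a difference above 0 and 39 one below. Ppargc1a, the coactivator PGC-1 alpha that is known to drive transcription of these genes, had intensities of 195, 330 and 439 in WT and of 407, 1044, 683 and 237.5 in T-ETV1, and was thus highest in the array with the lowest subunit values; it was chosen after its values were seen, and its groups overlapped.

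**Figure D5:**
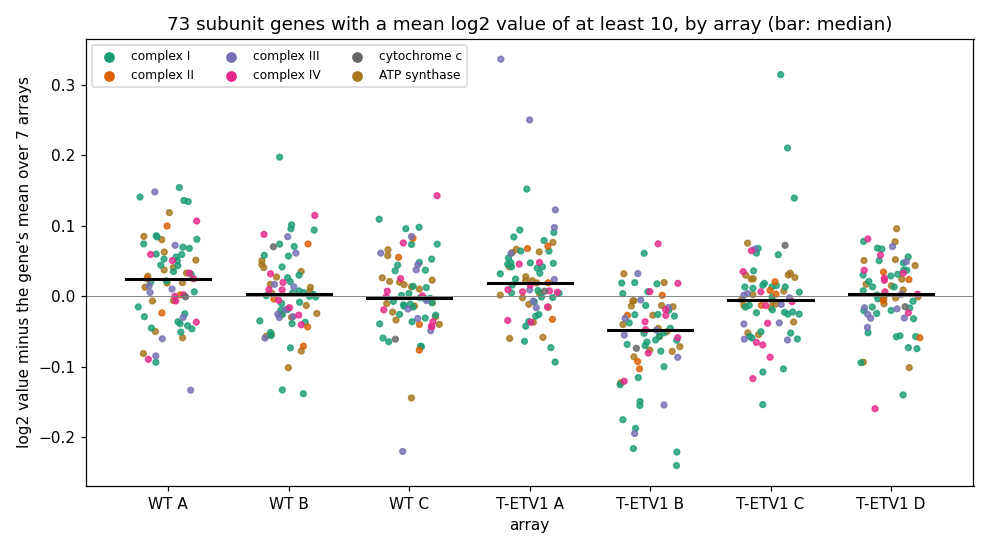
Deviation of the 73 bright members from their mean over 7 arrays (y axis, log2) in each array (x axis), coloured by complex, with the median as a bar. The bar of T-ETV1 B is at -0.05 and those of the other 6 arrays lie between -0.0043 and 0.03.

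Other genes of the pathway were taken from lists of assembly factors, regulators and partners, and none of them passed. Of 48 assembly factors 23 had a difference above 0 and 25 one below, with a median of -0.0064. Ndufaf7, a methyltransferase for complex I assembly, had 0.36 ± 0.12 with all T-ETV1 arrays higher (limma adjusted p = 0.758), and Cmc1, a complex IV assembly factor, had -0.22 ± 0.09 with all of them lower (adjusted p = 0.804). Atpif1, the inhibitor protein of ATP synthase, had intensities of 5497, 5454 and 5173 in WT and of 4978, 4656, 5052 and 4713 in T-ETV1. Its groups did not overlap, and the difference was -0.15 ± 0.09 (limma adjusted p = 0.876). For the other factors named by the rule the groups overlapped, except for Uqcc1 of complex III, which had 0.21 ± 0.11 with all T-ETV1 arrays higher: Ndufaf6 had -0.45 ± 0.19, Sdhaf3 0.14 ± 0.17, Sdhaf4 0.07 ± 0.11, Ttc19 0.30 ± 0.19, Pet100 0.26 ± 0.13 and Atpaf2 -0.29 ± 0.18 (SE).

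Of 19 regulators of mitochondrial biogenesis 10 were above 0 and 9 below, with a median of 0.0068. Tfb2m, a mitochondrial transcription factor, had 0.28 ± 0.11 with all T-ETV1 arrays higher (limma adjusted p = 0.804). Gabpa, the ETS factor named above, had -0.41 ± 0.19 (adjusted p = 0.823), with T-ETV1 C at 842 among the WT intensities of 793, 795 and 878 and T-ETV1 A, B and D at 590, 592 and 483.

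The other lists were close to level. The 13 citric acid cycle genes had a median difference of -0.02 (5 above and 8 below 0), the 76 mitochondrial ribosomal proteins also -0.02 (30 and 46), the 12 coenzyme Q genes -0.04 (4 and 8) and the 7 carriers -0.01 (2 and 5). Among the carriers Slc25a4, an ADP/ATP translocase, had -0.16 ± 0.10, with all T-ETV1 arrays below all WT arrays (limma adjusted p = 0.876), and the channel Vdac2 had -0.31 ± 0.15. Among the ribosomal proteins Mrps18a had -0.34 ± 0.14 and Mrpl20 -0.19 ± 0.09, both without overlap. Overlapping groups were found for Dld (-0.17 ± 0.11) and Idh3a (-0.16 ± 0.13) of the cycle and for Coq3 (0.34 ± 0.19) and Coq9 (0.16 ± 0.11). The median within-group SD was 0.09 for the citric acid cycle and 0.13 for the mitochondrial ribosome, against 0.06 for all 84 members, but these lists are also dimmer, with a median log2 level of 11.3 and 11.2 against 12.1, and members between 11 and 12 had an SD of 0.07.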

How the data were processed

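The deposited values are authors' probe set intensities on a linear scale from Affymetrix mouse arrays, made from total RNA after NuGEN cDNA amplification, per the labels' protocols. How probes were summarised and arrays scaled is not given in the sources used here. The authors' deposited intensity was turned into log2(intensity + 16). Array medians differed by at most 0.476, under the limit of 0.5 for quantile normalization. Of 45037 probe sets 34945 had 1 gene symbol, 932 several and 9160 none in the platform annotation, with symbols updated by Entrez ID (34741 matched). T-ETV1 minus WT was fitted over 18193 genes (R 4.3.3, limma 3.58.1: lmFit, eBayes, 6.67 total degrees of freedom, Benjamini-Hochberg), with a script tested on simulated data. Tables and figures used Python 3.11.15 and pandas 2.3.3. Named were members with an unadjusted p under 0.05 or groups without overlap, the 2 smallest p values of each complex, the restricted isoforms, and the 2 smallest p values of each list (of the marker lists, Pdgfrb is given, and Rgs5 beside it after its values were seen); other members are described for their role, with their values known. The members and lists were chosen with earlier results of these data known, and the signal limit of 10 (first set higher), the signal ranges and the limits of 0.1 and 0.25 were chosen after the values were seen. The sample titles give a letter only, so whether the letters A to C pair arrays is not known. Deviations from group means correlated at 0.281, 0.217 and 0.356 between arrays of the same letter (WT A and T-ETV1 D at 0.187). The main fit did not use the letters. Other settings tried were a pseudocount of 1 or 64, median centring, quantile normalization, a filter on the lowest 30% of genes, the mean of probe sets, a fit of all probe sets, a threshold of 0.1, the replicate block, array weights, and leaving out each array or both C arrays.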

Additional observations from a re-analysis of the deposited data

Results flagged for a closer look

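Of 28 values examined in the 4 T-ETV1 arrays (named genes and medians of the members), 2 had an array that stood apart from the others by the 95% limit of Dixon's test, which chance passes in about 1 of 20. Ndufs8 was at 11.59 on the log2 scale in T-ETV1 B, against 11.75 to 11.77 in the other arrays. Uqcr10 was at 11.87 in T-ETV1 A, against 11.58 to 11.62. Both arrays are those at the ends of the range of the complex III median. In T-ETV1 A, however, that median is the value of Uqcr10 itself, so it is no separate observation. The causes were not tested.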

How the results depend on the processing

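No member passed (limma, adjusted p under 0.05) under any alternative run, nor at a threshold of 0.1. Values of named members turned their sign 33 times in all, with no adjusted p under 0.05 among them. With the replicate block, which pairs the letters A to C and so leaves out T-ETV1 D, no gene passed either. The block turned Atp5g1 to -0.0187 and Atp5g3 to -0.0070. The count of all genes called ran from 0 to 27 when 1 array was left out (27 without T-ETV1 C, 7 without WT C) and was 68 without both C arrays. Median centring moved the members' median difference to 0.128, and turned Atp5g2 to 0.124, Atp5k to 0.0477, Cycs to 0.132 and Sdhc to 0.0463. Quantile normalization turned Atp5g2 to 0.0041 and Cycs to 0.0177. The mean of probe sets turned Atp5g1 to -0.215, Cycs to 0.164, Sdhd to -0.012 and Uqcr10 to -0.537. Array weights turned Cox6a2 to -0.0296 and Cox7a1 to -0.355. Without both C arrays Atp5g1 was -0.0089, Cox6a2 -0.0395 and Cox7a1 -0.0824. Leaving out 1 array gave ranges that hold 0 for Atp5g1 (-0.0187 to 0.0464), Atp5g2 (-0.0224 to 0.0011), Atp5g3 (-0.0198 to 0.0226), Cycs (-0.0368 to 0.0289), Cox4i2 (-0.0525 to 0.31), Cox6a2 (-0.0872 to 0.0845), Cox7a1 (-0.167 to 0.407), Cox7b2 (-0.0519 to 0.169) and Cox8c (-0.0119 to 0.208). Beyond the block, the cause of these turns was not tested. Differences of bright members had limma standard errors of 0.08 to 0.15, which include spread pooled from all genes. The dim isoforms carry no detection call.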
